A study of Danio rerio with 14 samples.

Results

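Ion channels and ion pumps of the zebrafish pineal gland were grouped by gene symbol. The set held the potassium (kcn), sodium (scn), calcium (cacn) and chloride (clcn) channels, the cyclic nucleotide-gated (cng) and hyperpolarization-activated (hcn) channels and the TRP genes. It also held the Na,K-ATPase (atp1a and atp1b), the calcium pumps (atp2a and atp2b) and the vacuolar proton pump or V-ATPase (atp6). Symbols that begin with trpt or trps were left out, and a gene with several probe sets was represented by the probe set with the highest mean over all arrays. This gave 64 genes out of 8792 with a single symbol on the array, 28 of them named as channel genes and 36 as pump genes, measured by 80 probe sets.

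The arrays measured RNA of pineal glands from adult Tg(aanat2:EGFP)Y8 zebrafish of 3 to 6 months, males and females together, raised at 28 °C with 12 h of light and 12 h of darkness. In the first condition (LD, 7 arrays) this cycle went on during collection. In the second condition (DD, 7 arrays) fish of the same line and age were kept in constant darkness during that cycle. Fish of both conditions carried the transgene, whose EGFP served to find the gland, and no sorting of cells was described. Each array held a pool of 12 glands taken at zeitgeber time (ZT, hours after lights on) 2, 6, 10, 14, 18 or 22. A further pool in each condition was called ZT2b. The labels do not say how it was collected, and it was used here as ZT2. RNA was amplified by 2 rounds of in vitro transcription. Most times thus had a single pool in each condition, so p-values reflect how far these pools scatter about the fits. The labels name no batch. A batch that lay between the conditions cannot be told apart from the light.

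The pineal of fish is a light-sensitive organ whose photoreceptor cells make melatonin at night. In vertebrate photoreceptors, cyclic nucleotide-gated channels carry the inward current of darkness, light closes them, and potassium and HCN channels shape the resulting hyperpolarization. The Na,K-ATPase restores the sodium and potassium gradients that this current runs down, calcium pumps clear calcium from the cytosol, and the V-ATPase acidifies vesicles and lysosomes.

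All 9 measured markers of pineal photoreceptors, among them exorh and aanat2, passed the filter on dim probe sets used here (a mean signal above 29.179). Their summed signal was 28333.8 to 48854.5 in LD and 26626.6 to 35784.2 in DD. Of 13 measured markers of skeletal and heart muscle 4 passed it. The DD array of ZT10 stood apart: its poly-A spikes had a geometric mean of 1620, against 89.96 to 236.7 on the other 13 arrays. It held the lowest signal of the 14 arrays for 19.5% of all tested probe sets and the highest for 20.5%, and for 10 and 7 of the 43 tested channel and pump genes.

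Of the 64 genes, 43 passed the filter and were tested, 14 of 28 channel genes and 29 of 36 pump genes. The level was the 40th percentile of the probe set means, and 6116 of all 8792 genes with a single symbol passed it. The counts by family were not tested against that share. All 15 V-ATPase genes passed, 3 of the membrane sector Vo, 9 of the catalytic sector V1 and 3 accessory ones. Of the Na,K-ATPase 9 of 13 genes passed, and of the calcium pumps 5 of 8. Both cyclic nucleotide-gated and HCN genes passed (cnga1a and hcn2b), all 3 genes with TRP symbols, and 3 of 5 voltage-gated potassium channels. Of the sodium channel symbols 3 of 5 passed, of the calcium channel genes 2 of 5 and of the chloride channel genes 1 of 5. These counts go by symbol. They hold trpc4apa and trpc4apb, TRPC4-associated proteins, and scnm1, a splicing factor, which are no channels. None of 2 two-pore potassium channels (kcnk1b and kcnk5a) passed, nor the calcium-activated kcnn1b, and 0 inward rectifiers were measured.

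The 21 genes below the filter had means of 3.64 (atp1a1a.5) to 26.1 (atp2a2a) over the 14 arrays, and the dimmest gene tested was scn8aa with 33.0. They included 4 atp1a1a paralogs, Na,K-ATPase genes known in fish from ionocytes. Their highest signal on any array was 84.0, for atp1a1a.3 on the LD array of ZT18. The 5 atp1a1a genes in RefSeq lie on 1 chromosome with 0 other protein-coding genes between them, and near-identical copies can share probes, so their values are uncertain. atp2a1, the calcium pump of fast muscle, had signals of 10.1 to 52.3 in LD and 4.3 to 26.5 in DD. kcnh6a, the ERG potassium channel of the zebrafish heart, had signals of 1.6 to 8.1 in LD and 3.3 to 43.7 in DD. Both lay below the filter, as did the L-type calcium channel gene cacna1c (mean 23.9).

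Which channel and pump transcripts follow the time of day was asked with a 24-h wave fitted to all 14 arrays, with the light condition as a term. The size of a rhythm is the fitted change between trough and peak on the log2(signal + 14.9) scale, which cannot be below 0. A potassium channel gene, kcnh2a, and a Na,K-ATPase β subunit gene, atp1b3a, were rhythmic, and both were highest in the first part of the day. These were 2 of 43 tested genes, against 4.86% of all tested probe sets. At an unadjusted p under 0.05 there were 12, against 17.6%, and the median size was 0.39, against 0.34 over all probe sets. Without the DD array of ZT10, 4 genes were called, and the share of all probe sets under that setting is not given here.

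kcnh2a encodes a channel of the ERG family, whose potassium current repolarizes the heart action potential in mammals. In LD its signal was 1182 at ZT2, 1336 at ZT2b, 932 at ZT6, 536 at ZT10, 311 at ZT14, 364 at ZT18 and 583 at ZT22. In DD it was 659.9, 388, 421, 596, 332, 204.5 and 193 at the same collections. The LD arrays after lights on were the highest of all 14, and the DD arrays of the late night were the lowest. The fitted change over both conditions was 1.57 ± 0.31 (log2, SE) with a peak at ZT4.91 (adjusted p = 0.0132), and it was called under every alternative that fitted a 24-h wave (adjusted p = 0.00742 to 0.0495). An F-test over the 6 times did not call it (adjusted p = 0.135). Of all 43 genes it had the largest fitted size over both conditions, and it was also the largest in LD and in DD.

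atp1b3a encodes a β subunit, which carries the catalytic α subunit of the Na,K-ATPase to the membrane. In LD its signal was 234 at ZT2, 244 at ZT2b, 153 at ZT6, 89.4 at ZT10, 63.7 at ZT14, 129 at ZT18 and 192 at ZT22. In DD it was 246, 279, 209, 214, 145, 105 and 161. The lowest arrays were ZT14 in LD and ZT18 in DD, and those of ZT2 were among the highest in both. The fitted change was 1.17 ± 0.22 with a peak at ZT2.49 (adjusted p = 0.0098). Leaving out LD ZT14, it was 1.02 (adjusted p = 0.0588), and without both ZT2b arrays 1.09 (adjusted p = 0.0777). The F-test over the 6 times gave it an adjusted p of 0.179.

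**Figure D1:**
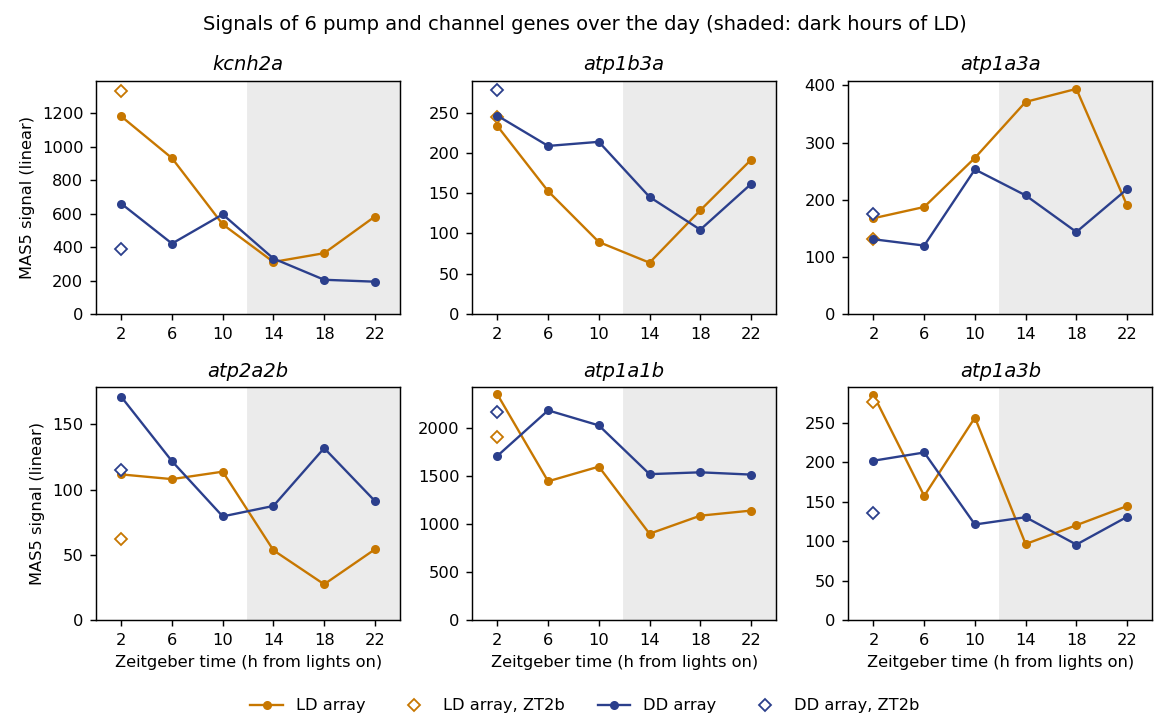
MAS5 signal (linear axis) of kcnh2a, atp1b3a, atp1a3a, atp2a2b, atp1a1b and atp1a3b by zeitgeber time, each point 1 array of 12 pooled glands, LD in orange and DD in blue, with the ZT2b arrays as open diamonds and the dark hours of LD shaded. In LD, kcnh2a is highest at ZT2b (1336) and lowest at ZT14 (311), while atp1a3a is highest at ZT18 (394).

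In a model with a wave for each condition, 4 of 43 genes were rhythmic in LD, against 4.1% of all probe sets, with a median size of 0.55 against 0.44. Leaving out DD ZT10 gave 5, with no share of all probe sets given for that setting. kcnh2a changed by 1.99 ± 0.32 (adjusted p = 0.00576). Leaving out the LD array of ZT14 gave an adjusted p of 0.0555, and leaving out both ZT2b arrays 0.0577. atp1b3a changed by 1.60 ± 0.22 (adjusted p = 0.00228), a call that no alternative ended. The other two calls had adjusted p-values close to the threshold. atp1a3a, the gene of an α subunit whose mammalian counterpart is neuronal, had LD signals of 168 at ZT2, 132 at ZT2b, 187 at ZT6, 273 at ZT10, 371 at ZT14, 394 at ZT18 and 189.9 at ZT22. In DD its lowest, median and highest signals were 120, 175 and 253. The LD arrays of ZT10, ZT14 and ZT18 thus exceeded every DD array. Its fitted change in LD was 1.36 ± 0.30 with a peak at ZT14.9 (adjusted p = 0.0411), and in DD 0.42 ± 0.30 (adjusted p = 0.761).

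atp2a2b, a SERCA pump that loads calcium into the endoplasmic reticulum, had LD signals of 112, 62.1, 108, 114, 53.6, 27.6 and 54.3 from ZT2 and ZT2b through ZT22. In DD its lowest, median and highest signals were 79.5, 115 and 171. In LD the arrays of the dark hours were all below every DD array. The LD rhythm was 1.51 ± 0.34 with a peak at ZT6.56 (adjusted p = 0.0480). The calls of atp1a3a and atp2a2b in LD were each lost in 13 of 24 alternatives. For atp1a3a these included leaving out any of the 7 LD arrays or the DD array of ZT2, ZT2b or ZT14 (adjusted p = 0.0505 to 0.17). For atp2a2b they included leaving out any LD array but ZT2b, or the DD array of ZT6, ZT14 or ZT2b (adjusted p = 0.0515 to 0.330).

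In DD, limma called 0 of 43 genes, against 0.645% of all probe sets, and 5 had an unadjusted p under 0.05, against 10.9%. The largest DD changes were 1.52 ± 0.35 for kcnh2a (adjusted p = 0.147) and 1.29 ± 0.53 for kcnd3, a Kv4 channel of the transient A-type current (adjusted p = 0.504). Leaving out DD ZT10, the kcnd3 change in DD was 0.15 ± 0.41 (adjusted p = 0.996). Without the DD array of ZT6, kcnh2a and atp1b3a were called in DD. Without that of ZT10 instead, limma called neither (adjusted p = 0.284 and 0.112). The shares of all probe sets under these settings are not given here. A call in LD alone does not show a difference between the conditions, so the difference of the rhythms was tested. It was called for 0 of 43 genes and for 0.0% of all probe sets. At an unadjusted p under 0.05 it was 6 genes, against 7.12%. The fitted peak of kcnh2a was at ZT3.36 in LD and ZT6.99 in DD, and that of atp1b3a at ZT0.933 in LD and ZT4.88 in DD (difference of the rhythms, adjusted p = 0.578 and 0.566).

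Several genes of the same families had fitted rhythms over both conditions that missed the threshold. The α subunit gene atp1a1b had 0.78 ± 0.19 with a peak at ZT4.79 (adjusted p = 0.0585). Its signal in LD was 2347 at ZT2 and 900.2 at ZT14, the highest and the lowest of its 14 arrays, while its DD arrays lay between 1514.5 and 2182. The paralogs atp1a3a and atp1a3b had fitted peaks at opposite hours, ZT14.7 (size 0.89 ± 0.23, adjusted p = 0.0759) and ZT4.55 (size 0.96 ± 0.24, adjusted p = 0.0619). This difference between the paralogs was not tested. hcn2b had 0.75 ± 0.21 with a peak at ZT0.321 (adjusted p = 0.1), kcnb2a 0.76 ± 0.24 (adjusted p = 0.182) and kcnd3 0.82 ± 0.44 (adjusted p = 0.517). Without the DD array of ZT10, atp1a1b was called (0.77, adjusted p = 0.0435), and it was called too when DD ZT2 or LD ZT6 was left out. The β subunit gene atp1b3b had 0.74 ± 0.21 (adjusted p = 0.125) and was called without DD ZT10 (0.87, adjusted p = 0.0371). atp1a3b was called without the LD array of ZT6 (1.16, adjusted p = 0.0187), the LD array of ZT10 or the DD array of ZT2b, and atp1a3a without the DD array of ZT18 (1.1, adjusted p = 0.0180).

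**Figure D2:**
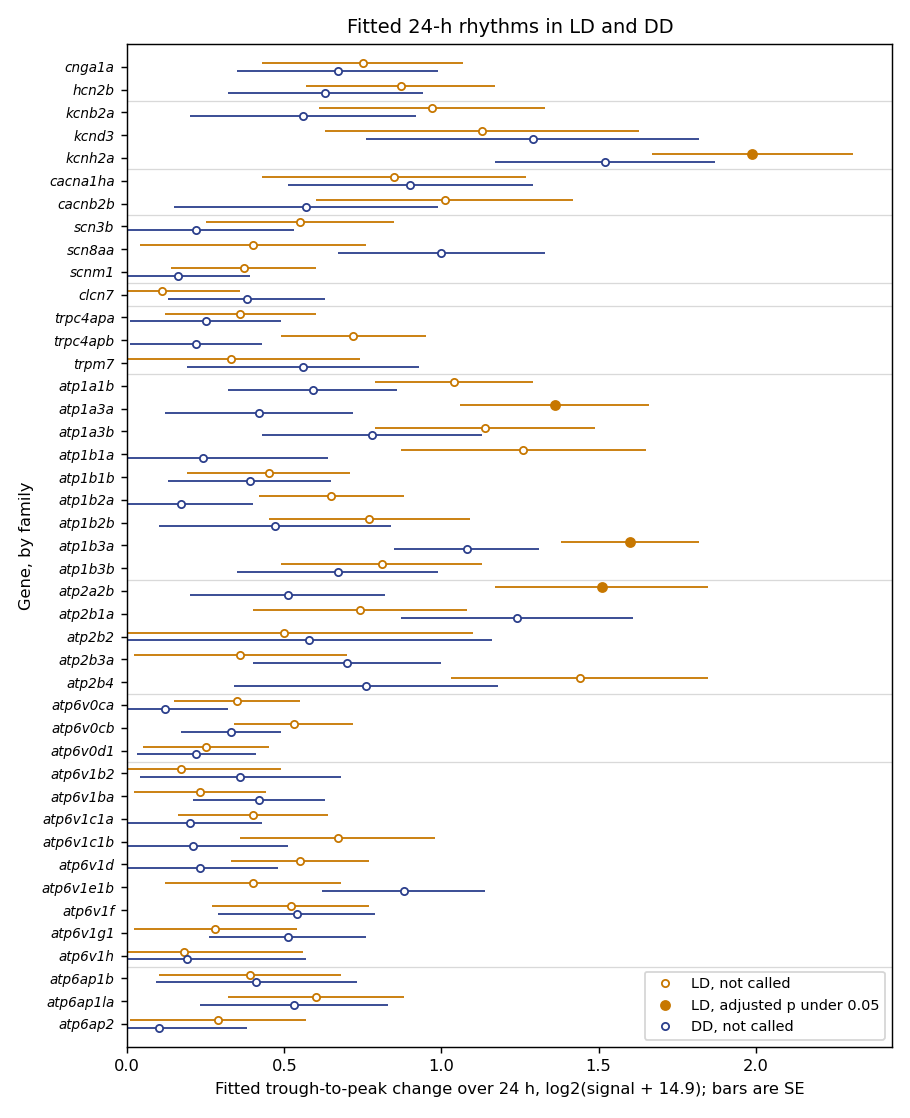
Fitted trough-to-peak change over 24 h (log2(signal + 14.9), bars are SE) of the 43 tested genes, grouped by family, LD in orange above DD in blue, filled points with an adjusted p under 0.05. Filled points are kcnh2a (1.99), atp1b3a (1.60), atp2a2b (1.51) and atp1a3a (1.36) in LD. None of the 15 V-ATPase genes has one, where 4.1% of all probe sets were called in LD.

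LD and DD were then compared over the whole cycle, with the hour of collection as a block, because LD and DD were sampled at matching hours. In LD 5 of 43 genes were higher, against 10.0% of all probe sets, and 3 were lower, against 10.6%. The genes higher in LD were the plasma membrane calcium pump gene atp2b1a, kcnh2a, the Na,K-ATPase β subunit gene atp1b2a and the V-ATPase genes atp6v1h and atp6v1e1b. The genes lower in LD were atp1b1a, trpm7 and atp6ap1b. The median difference was 0.11 over the 43 genes and -0.01 over all probe sets, and 26 of 43 genes (60.5%) lay above 0, against 48.8% of all probe sets. Fewer cells of a type and less RNA per cell cannot be told apart in whole glands.

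atp2b1a, a pump that moves calcium out of the cell, had signals of 190, 296 and 418 in LD and of 50.6, 147 and 230.3 in DD (lowest, median and highest of 7 arrays each). It was higher in LD at 7 of 7 collections, and the ranges overlapped only through the LD array of ZT2b and the DD array of ZT18. The difference was 1.15 ± 0.24 (log2, adjusted p = 0.00576), called under every alternative run (adjusted p = 0.00364 to 0.0188). Leaving out DD ZT10, it was 0.89 ± 0.17 (adjusted p = 0.0049). A dimmer probe set of the same gene had 63.6 ± 15.4 in LD and 76.2 ± 15.9 in DD (mean ± SD, n = 7 each). Its difference was -0.22 ± 0.14 (adjusted p = 0.262), so the probe sets of atp2b1a disagreed. The array of ZT10 in DD was the lowest of the 14 for the first probe set and the highest of the 14 for the second.

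kcnh2a had 311, 583 and 1336 in LD and 193, 388 and 659.9 in DD. It was higher in LD at 5 of 7 collections, and the ranges overlapped. The difference was 0.82 ± 0.21 (adjusted p = 0.0168). The call was lost without the ZT22 array of either condition (0.71, adjusted p = 0.0527 and 0.0528), without both ZT2b arrays (0.67, adjusted p = 0.0710) and without the block (adjusted p = 0.0962).

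atp1b2a encodes the β2 subunit, known in mammals as the adhesion molecule on glia. Its signals were 1631, 1864 and 2655 in LD and 1166, 1347 and 1676 in DD. It was higher in LD at 6 of 7 collections, with ZT2 as the exception, and the ranges overlapped only between the lowest LD arrays and the DD array of ZT2. The difference was 0.54 ± 0.12 (adjusted p = 0.00825), called under every alternative run (highest adjusted p = 0.0431). Of its other 3 tested probe sets, 2 were called as well, with 0.66 ± 0.18 (adjusted p = 0.0222) and 0.56 ± 0.14 (adjusted p = 0.0145). The dimmest had 0.41 ± 0.23 (adjusted p = 0.221).

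atp6v1e1b, a stalk subunit of the V1 sector, had 1549, 1723 and 2062 in LD and 639, 1390.3 and 1534 in DD. Every LD array lay above every DD array, which held for 1 of the 43 genes and for 2.13% of all probe sets, and for 0 of the 43 the other way round, against 2.33%. The difference was 0.47 ± 0.13 (adjusted p = 0.0224), and 0.34 ± 0.09 (adjusted p = 0.0202) leaving out DD ZT10. The call was lost without both ZT2b arrays (adjusted p = 0.0744) and without the block (adjusted p = 0.0541). atp6v1h, the regulatory H subunit, had 736, 909.6 and 1027 in LD and 378, 741 and 849.6 in DD. The difference was 0.52 ± 0.14 (adjusted p = 0.0206), higher in LD at 6 of 7 collections. Its call was lost without the ZT22 array of either condition (0.45, adjusted p = 0.0592 and 0.0597), without the DD array of ZT2b (0.46, adjusted p = 0.0519) and without both ZT2b arrays (0.46, adjusted p = 0.0871).

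**Figure D3:**
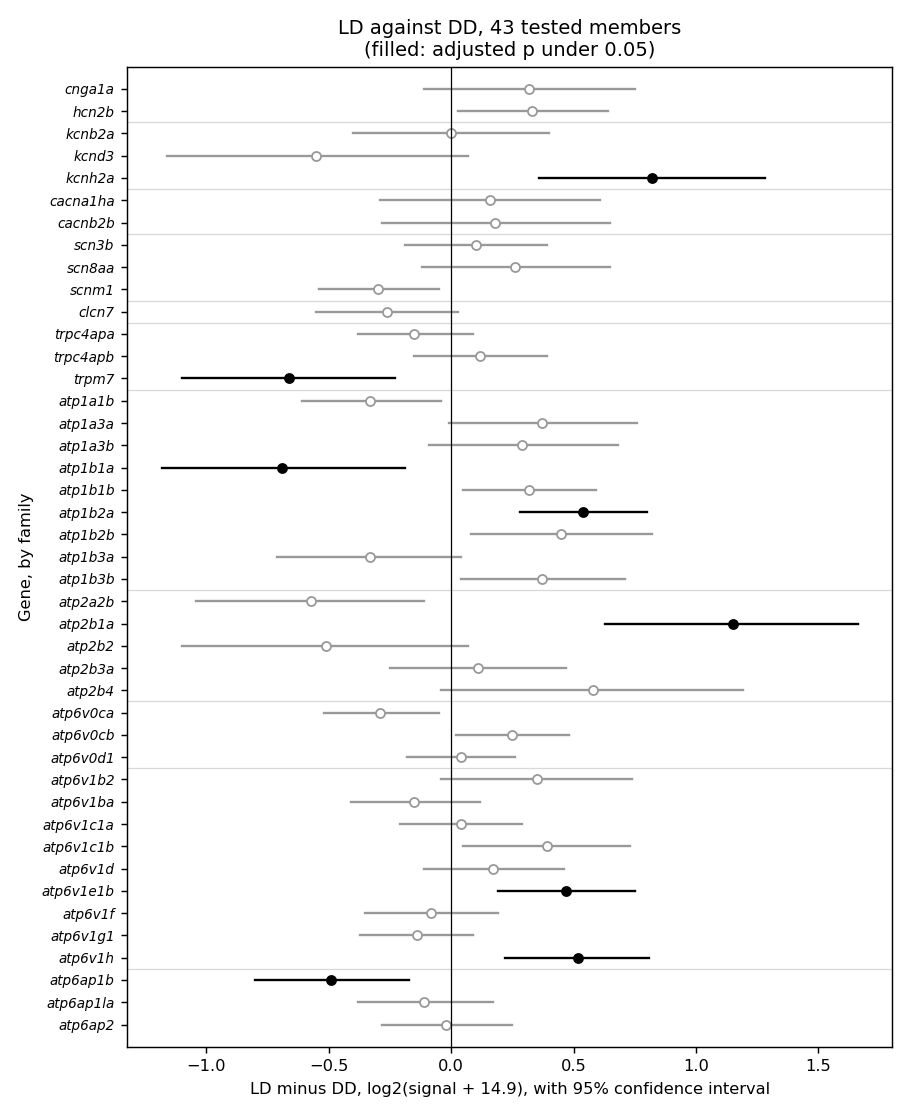
LD minus DD (log2(signal + 14.9)) with its 95% confidence interval for the 43 tested genes, grouped by family, filled where the adjusted p was under 0.05. The filled points run from atp2b1a (1.15) to atp1b1a (-0.69), and V-ATPase genes lie on both sides of 0.

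Among the genes lower in LD, trpm7 encodes a channel fused to a kinase that carries magnesium and other divalent cations. Its signals were 216, 235 and 353 in LD and 197, 456 and 549 in DD. The DD array of ZT2 was the lowest of all, and the other 6 DD arrays lay above every LD array. The difference was -0.66 ± 0.20 (adjusted p = 0.0332), and the second probe set gave -0.62 ± 0.16 (adjusted p = 0.0146). The call of the first was lost without both ZT2b arrays (adjusted p = 0.0800), without either array of ZT6, ZT14, ZT18 or ZT22, or without the DD array of ZT2b (-0.65 to -0.57, adjusted p = 0.0704 to 0.0866).

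atp1b1a, the β1 subunit gene, had 692, 822 and 1933 in LD and 972, 1737 and 2216 in DD. The lowest DD signal was that of ZT2 and the highest that of ZT2b, so the DD range lies between pools used as the same hour. The LD arrays of ZT6, ZT10, ZT14 and ZT18 were below every DD array, while that of ZT2 was among the highest. The difference was -0.69 ± 0.23 (adjusted p = 0.0499). The call was lost in 20 of 26 alternatives, in which either array of a single pair counts separately though both drop the same pair. These included leaving out either array of ZT6, ZT10, ZT14, ZT18, ZT22 or ZT2b (-0.72 to -0.54, adjusted p = 0.0735 to 0.135), and its second probe set had -0.44 ± 0.23 (adjusted p = 0.190).

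atp6ap1b, a V-ATPase accessory subunit gene, had 32.3, 49.2 and 68.6 in LD and 50.1, 67.6 and 91.4 in DD. These signals were dim and the ranges overlapped. The difference was -0.49 ± 0.14 (adjusted p = 0.0308), lost in 10 of 25 alternatives. They included leaving out either array of ZT6, ZT18 or ZT22, DD ZT2 or LD ZT2b (-0.46 to -0.41, adjusted p = 0.0642 to 0.0846), and both ZT2b arrays (adjusted p = 0.0636).

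Some markers of other cells were called too, where 10.0% of all probe sets were called higher in LD and 10.6% lower. No count of a marker list was tested against these shares. Of the blood markers 3 of 3 tested were lower in LD (summed signal 7053.2 to 12017.6 in LD, 9086.3 to 18123.7 in DD). Of the neuronal markers 2 of 8 tested, snap25a and snap25b, were higher in LD (7062.1 to 8507.7 in LD, 5450.1 to 7288.2 in DD). Of the astroglial markers slc1a2b was higher in LD and glula and s100b were lower (6 tested, 5572 to 8155.9 in LD and 6514.7 to 8817.4 in DD). Among the 9 pineal photoreceptor markers otx5 (1.09) and pde6ha (0.90) were higher in LD. Higher in LD were also 2 of 6 markers of connective tissue and 1 of 5 of skin. Lower in LD were 2 of 6 leukocyte markers, 1 of 2 of the habenula, 1 of 4 of myelin and 1 of 1 of pigment cells, and 0 of 4 muscle markers were called. The part of any of these in the differences of channel and pump genes was not tested.

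The largest differences that missed the threshold were those of atp2b4 (0.58 ± 0.28, adjusted p = 0.165), atp2a2b (-0.57 ± 0.22, adjusted p = 0.0764), kcnd3 (-0.55 ± 0.28, adjusted p = 0.190), atp2b2 (-0.51 ± 0.27, adjusted p = 0.193) and atp1b2b (0.45 ± 0.17, adjusted p = 0.0770). Without either array of ZT10, atp2a2b was called (-0.74, adjusted p = 0.0226 and 0.0224). atp2b4, another plasma membrane calcium pump, had its highest signal at ZT14 in LD, with 2670, against 606 on the DD array of that time. Its second probe set was called higher in LD (0.88 ± 0.25, adjusted p = 0.0254). Probe sets also parted for atp6v0ca, with -0.29 ± 0.11 (adjusted p = 0.0819) for the brighter and 0.53 ± 0.19 (adjusted p = 0.0579) for the dimmer. For trpc4apb, a TRPC4-associated protein and no channel itself, the probe set used had 0.12 ± 0.13 (adjusted p = 0.525). Another, of a type that can match several transcripts, had 53.0, 65.3 and 80.3 in LD and 101, 123 and 130.3 in DD. Its groups did not overlap, with a difference of -0.74 ± 0.12 (adjusted p = 0.00157), while the remaining 2 probe sets had 0.07 and 0.26.

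**Figure D4:**
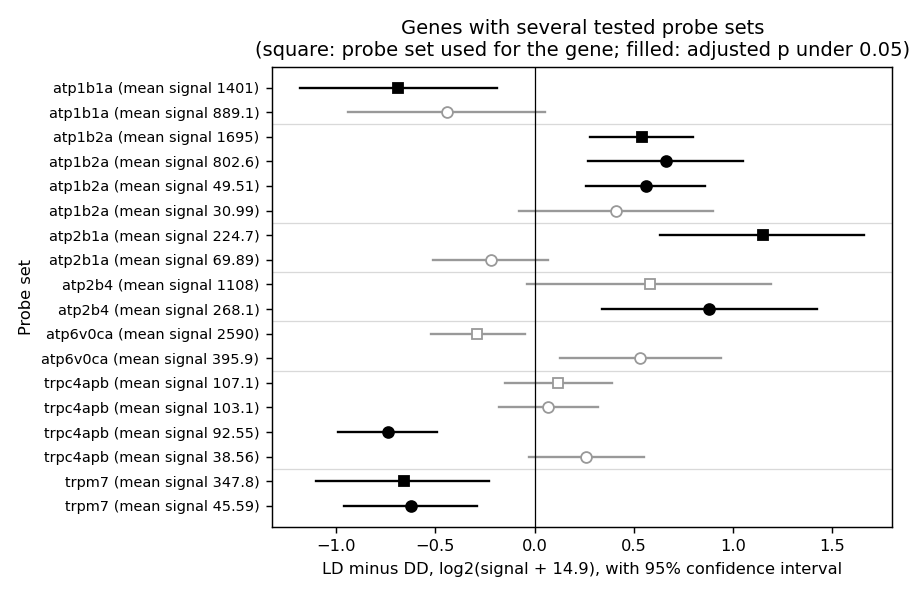
LD minus DD (log2(signal + 14.9)) with its 95% confidence interval for each tested probe set of the 7 genes with several, squares for the probe set used for the gene and filled symbols for an adjusted p under 0.05. All 4 probe sets of atp1b2a lie above 0, while those of atp2b1a (1.15 and -0.22) and atp6v0ca (-0.29 and 0.53) lie on opposite sides.

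Lights were on in LD and off in DD at ZT2, ZT2b, ZT6 and ZT10, whereas both conditions were dark at ZT14, ZT18 and ZT22. At day hours 1 of 43 genes was called higher in LD, atp2b1a (1.18 ± 0.33, adjusted p = 0.0448), against 4.97% of all probe sets, and 0 were called lower, against 4.26%. Without either array of ZT10 it was 0.66 (adjusted p = 0.104), while cacna1ha and kcnh2a were called, and the call was lost in 15 of 26 alternatives. At night hours 1 gene was called higher, atp1b2a (0.77 ± 0.17, adjusted p = 0.0383), against 1.37%, and 0 were called lower, against 1.56%. This call was lost in 14 of 26 alternatives, with an adjusted p of 0.193 at its highest. Without the DD array of ZT10, 3 genes were called at night hours, atp1b2a, atp2b1a and cnga1a. That array is of day hours, and the night values of atp1b2a (0.77) and cnga1a (0.85) were the same with and without it. Shares of all probe sets without the ZT10 arrays are not given here. An unadjusted p under 0.05 was found for 9 genes by day, against 27.6% of all probe sets, and for 15 by night, against 20.6%. Day and night contrasts were set against each other with limma, and their difference was called for 0 genes and for 0.0% of all probe sets. At an unadjusted p under 0.05 it was 2 genes, cacnb2b and cnga1a, against 5.67%.

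cnga1a encodes the α subunit of the cGMP-gated channel of rod photoreceptors. Its LD signals were 756 at ZT2, 991 at ZT2b, 800.2 at ZT6, 589.8 at ZT10, 1041 at ZT14, 1071 at ZT18 and 1107 at ZT22. In DD they were 758, 720.3, 650.2, 1232, 578, 571 and 621. The 3 LD arrays of the dark hours lay above all DD arrays but that of ZT10, which had the highest signal of all. Over the cycle the difference was 0.32 ± 0.20 (adjusted p = 0.272), and without the ZT10 array of DD or of LD it was 0.55 (adjusted p = 0.0127 and 0.0126). At night hours it was 0.85 ± 0.24 (adjusted p = 0.0827) and at day hours -0.08 ± 0.21 (adjusted p = 0.848), with an adjusted p of 0.772 for the difference between these. Leaving out DD ZT10, the value at day hours was 0.25 ± 0.14 (adjusted p = 0.287).

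hcn2b, a channel opened by hyperpolarization, had 58.7, 93.8 and 142 in LD and 50.2, 66.0 and 129 in DD. It was higher in LD at 7 of 7 collections, but the ranges overlapped widely and the difference of 0.33 ± 0.14 was not called (adjusted p = 0.110). kcnb2a, a delayed-rectifier channel of the Kv2 subfamily, had 121, 203 and 379 in LD and 147, 229.5 and 331 in DD. Its difference was 0.00 ± 0.19, with a 95% interval of -0.4 to 0.4. kcnd3 had 143, 280 and 457 in LD and 272, 314 and 1200.5 in DD, and the highest DD value was that of the array of ZT10. The other 6 DD arrays lay between 272 and 406. Its difference was -0.55 with all arrays and -0.26 ± 0.23 (adjusted p = 0.448) leaving out DD ZT10.

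The calcium channel genes tested were cacna1ha, of the T type, and cacnb2b, an auxiliary β subunit. Their differences over the cycle were 0.16 ± 0.21 (adjusted p = 0.615) and 0.18 ± 0.22 (adjusted p = 0.581). cacnb2b had 0.76 ± 0.27 at night hours (adjusted p = 0.138) and -0.25 ± 0.23 at day hours (adjusted p = 0.514). Leaving out DD ZT10, its value at day hours was 0.01 ± 0.22 (adjusted p = 0.987). Of the sodium channel symbols, scn8aa (Nav1.6 in mammals) had 0.26 ± 0.18 and the auxiliary scn3b 0.10 ± 0.13. scnm1, known in mouse as a splicing factor that modifies the effect of an Scn8a mutation and no channel, had -0.30 ± 0.11 (adjusted p = 0.0773) and was lower in LD at 7 of 7 collections. clcn7, a chloride and proton exchanger of lysosomes, had 213, 265 and 337 in LD and 267, 315 and 397 in DD. Its difference was -0.26 ± 0.13 (adjusted p = 0.180), lower in LD at 6 of 7 collections. trpc4apa was lower in LD at 7 of 7 collections by a small amount (-0.15 ± 0.11, adjusted p = 0.367).

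The remaining Na,K-ATPase genes gave differences on both sides of 0. The α subunit genes atp1a1b, atp1a3a and atp1a3b had -0.33 ± 0.13 (adjusted p = 0.0929), 0.37 ± 0.18 (adjusted p = 0.156) and 0.29 ± 0.18 (adjusted p = 0.258). Without the ZT2 array of DD or of LD, atp1a1b was called (-0.41, adjusted p = 0.0350 and 0.0426). The β subunit genes atp1b1b, atp1b3a and atp1b3b had 0.32 ± 0.13, -0.33 ± 0.17 and 0.37 ± 0.16, with adjusted p-values of 0.0903 to 0.185. Of these, atp1b1b was called without the DD array of ZT10 (0.40, adjusted p = 0.0301). Over the 9 tested genes, 1 was called higher and 1 lower in LD, against 10.0% and 10.6% of all probe sets, with a median of 0.32. Of 5 calcium pump genes 1 was called higher, against the same 10.0%, with a median of 0.11.

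The median SD of the V-ATPase genes over the 14 arrays was 0.25 (log2), against 0.38 over the 43 genes, these included, and 0.33 over all probe sets. No test was run on these SDs, and the lists were not matched for brightness. The V-ATPase means ran from 52.1 (atp6ap1la) to 2590 (atp6v0ca), the highest of the 43 genes. Within the V-ATPase the SD was smallest for atp6v0d1, a subunit of the Vo sector (0.115), and largest for atp6v1h (0.412). For atp6v0d1 the signal was 1031, 1126 and 1314 in LD and 992.5, 1109.8 and 1259 in DD, with a difference of 0.04 ± 0.10 (95% interval -0.18 to 0.26). Of 15 genes limma called 0 for a rhythm in LD, against 4.1% of all probe sets, and 0 in DD, against 0.645%. Over both conditions 0 were called, against 4.86%, and 2 had an unadjusted p under 0.05, against 17.6%. With 15 genes, 0 calls lie close to these shares of called probe sets, so they do not set the V-ATPase apart. For LD against DD, 2 of the 15 were called higher and 1 lower, against 10.0% and 10.6% of all probe sets, with a median of 0.04. atp6v0cb, a subunit of the proteolipid ring, had 2318, 2729 and 3344 in LD and 1999.6, 2365 and 2693 in DD, with a difference of 0.25 ± 0.11 (adjusted p = 0.112). atp6v1g1 and atp6v1f, small subunits of the V1 stalks, had -0.14 ± 0.11 (adjusted p = 0.386) and -0.08 ± 0.13 (adjusted p = 0.681), and atp6v1ba, a B subunit gene, -0.15 ± 0.12 (adjusted p = 0.418). Leaving out DD ZT10, atp6v1g1 had -0.22 ± 0.09 (adjusted p = 0.086) and atp6v1f -0.17 ± 0.11 (adjusted p = 0.292).

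The DD array of ZT10 was the lowest of the 14 for 8 of 15 V-ATPase genes, where 19.5% of all tested probe sets had their lowest signal on it. These were atp6v0cb, atp6v1b2, atp6v1c1b, atp6v1e1b, atp6v1f, atp6v1g1, atp6v1h and atp6ap2. atp6v1h had 378 there and 494 to 849.6 on the other DD arrays. The count of genes higher in LD was 7 of 43 without this array, and the share of all probe sets under that setting is not given here. The part of this array in the level of the V-ATPase genes at ZT10 was not tested.

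**Figure D5:**
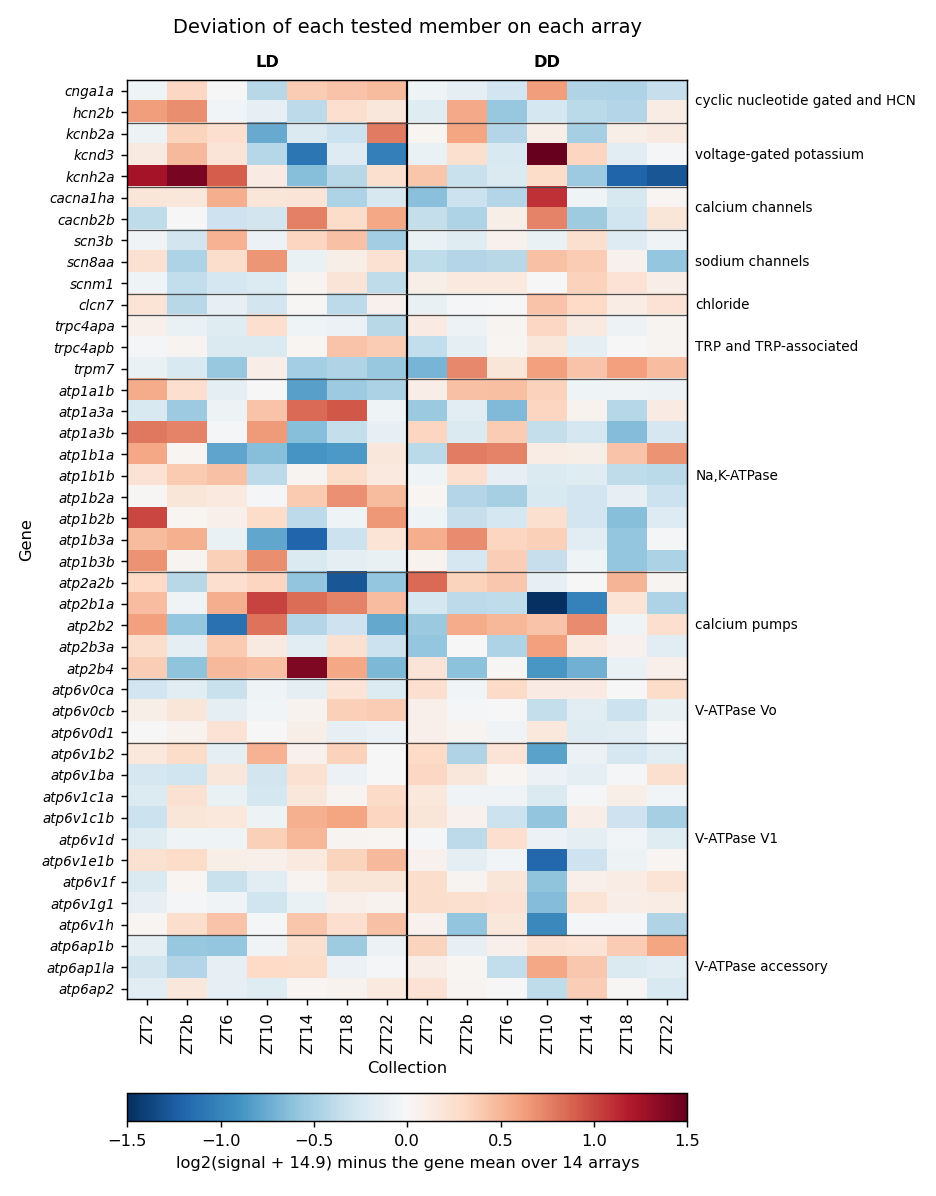
Deviation of each of the 43 tested genes on each array from the gene's mean over 14 arrays (log2(signal + 14.9), colours end at -1.5 and 1.5), LD arrays left of DD arrays, families separated by lines. kcnh2a is above its mean on the LD arrays of ZT2, ZT2b and ZT6, the V-ATPase block is pale, and the DD column of ZT10 holds the lowest value of 8 of its 15 genes.

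ZT2 and ZT2b were used as separate pools of the same hour, which the labels do not state. On that reading they show how far such pools differed. The median absolute difference between them over the 43 genes was 0.25 in LD and 0.29 in DD (log2), against 0.22 in LD and 0.23 in DD over all probe sets. The largest was 1.2 for atp2b2 in LD and 1.41 for trpm7 in DD. Over the cycle, the called differences between LD and DD of the 43 genes ran from 0.47 (atp6v1e1b) to 1.15 (atp2b1a) in size. All were above these medians and below these largest values. Calls favour large differences, so lying above the medians says little. The gene with the largest pool difference in DD, trpm7, was itself called, with a difference of -0.66. The comparison is rough, because a called difference averages over all collections while a pool difference is between single arrays. Called differences were not tested against the ZT2 and ZT2b pools of the same gene.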

How the data were processed

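The deposited values are intensities, the linear signal of each probe set. GCOS and MAS5 are the tools that the submitters' processing notes name (versions not given in the sources used here). Scaling by the authors left a trimmed mean of 150.04 on 13 arrays and 150.05 on the other. Detection calls were not used, and 0 columns belonged to other series. Values were transformed as log2(signal + 14.9), 14.9 being the 25th percentile of all values, which understates changes of dim genes. Of 15617 probe sets (115 controls), 1 had an empty cell, and 9299 had a mean above the 40th percentile and were tested.

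All p-values came from limma 3.58.1 (R 4.3.3) with a trend in the variance prior. They were adjusted by Benjamini-Hochberg over these probe sets with a threshold of 0.05. The fits were tested on simulated data with independent noise of the same spread on every array. Such data hold no array that stands apart like DD ZT10, so that case was not tested. Rhythms were tested with cosine and sine terms of 24 h. LD was compared with DD with the 6 times as a block, by which times rather than animals are paired. All 64 symbols matched RefSeq by Entrez ID. Tables and figures used Python 3.11.15, pandas 2.3.3 and matplotlib 3.10.9.

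The members, families and marker lists were chosen with earlier results of these data known. Named genes were the 12 with the highest mean, every called gene, the 5 largest uncalled values of each kind, and cnga1a, hcn2b and kcnb2a. Others were named, after their values were seen, where a count or family was described. Alternatives changed the pseudocount, filter, normalization, variance prior, block, ZT2b, probe sets per gene, shape of the rhythm, or left out 1 array.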

Additional observations from a re-analysis of the deposited data

Results flagged for a closer look

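In each condition the highest and lowest of 7 signals were set against the others for 26 named genes. In 6 of 52 groups a single array lay far from the other 6 (Dixon's test). The nominal rate of this test, about 1 group in 20, is no yardstick for that count. It assumes 7 like arrays, while these cover 6 times of day, and some genes were named for large values in the same data. The share of all probe sets marked is not given here. Of the 6 marked arrays, 5 were the DD array of ZT10. It also held the lowest of 14 signals for 19.5% of all tested probe sets and the highest for 20.5%. The signal of atp6v1g1 was 1272.4 there, against 2151.6 to 2408.3 on the other DD arrays. That of atp6v1e1b was 639.4, against 1179.3 to 1533.7, and that of atp6v1f was 548.7, against 870.4 to 1014.1. On the same array 2 channel genes were far above the others, cnga1a with 1231.9 (570.6 to 757.8 elsewhere in DD) and kcnd3 with 1200.5 (272.0 to 406.0). The poly-A spikes of this array had a geometric mean of 1620, against 89.96 to 236.7 on the other 13. The last was trpm7, with 197.0 on the DD array of ZT2 and 373.9 to 549.0 on the other DD arrays, among them 549.0 at ZT2b. The part of these arrays' quality in the values was not tested.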

How the results depend on the processing

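Over 1225 alternative values of the named genes, 1096 kept their side of the threshold, 109 lost a call, 20 gained 1 and 0 called values changed direction. The differences of atp2b1a and atp1b2a between LD and DD were called in every alternative run. The rhythm of kcnh2a over both conditions was called in each that fitted a 24-h wave, and not by an F-test over the 6 times (adjusted p = 0.135). Leaving out 1 array at a time gave 1 to 4 rhythmic genes over both conditions, 1 to 5 in LD and 0 to 2 in DD. It gave 3 to 7 genes higher in LD, 0 to 4 lower, 0 to 3 by day and 0 to 3 by night. Without both ZT2b arrays, the counts were 1 over both conditions, 1 in LD, 2 higher, 0 lower, 0 by day and 0 by night. Median centring gave 4 rhythmic genes over both conditions, and an F-test over the 6 times gave 0. With no filter or with no trend in the variance prior, 2 genes were rhythmic in LD, and 0 were called by day and 0 by night. With no filter 1 was lower in LD. A robust prior gave 0 by day, and quantile normalization 0 by night. Without the replicate block 3 genes were higher in LD and 2 lower, and kcnh2a and atp6v1e1b lost their calls. With a block over 7 collections, 0 were called by day and 0 by night. For LD against DD, leaving out 1 array of a time with a single pair drops that pair. Leaving out the LD or the DD array of such a time thus gives nearly the same result, and the counts of alternatives hold both. Over all calls 48.7% were higher in LD, 51.8% after quantile normalization and 56.4% after median centring, with medians of all probe sets of -0.009, 0.006 and 0.028 under these settings. The shares of all probe sets called under the alternatives are not given here, and the causes of these changes were not tested.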

Other observations

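Outside the set, 75 further genes were picked by symbol prefix, of which 34 were tested. Among them were water channels, ion exchangers and cotransporters, gap junction genes, neurotransmitter receptors and other channels. Regulators of the Na,K-ATPase, ATP synthase subunits, other ATPases and some prefix matches that are no channels were also among them. aqp1a.1, a water channel, had a fitted 24-h change of 1.18 ± 0.16 (log2, SE) with a peak at ZT1.41 (limma, adjusted p = 0.000701). aqp9b, a channel for water and glycerol, had 1.68 ± 0.24 with a peak at ZT17.3 (adjusted p = 0.00133), at dim signals of 1.3 to 47.6 in LD and 12.6 to 70.0 in DD. grik1a, a kainate receptor gene, had 1.09 ± 0.23 with a peak at ZT16.9 (adjusted p = 0.0249). These 3 were the rhythmic genes of the 34 over both conditions, against 4.86% of all probe sets.

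Between the conditions, 4 of the 34 were higher and 4 lower in LD, against 10.0% and 10.6% of all probe sets. slc4a2a, an anion exchanger, had 915 ± 210 in LD and 613 ± 57.2 in DD (SD, n = 7 arrays each), with a difference of 0.55 ± 0.13 (limma, adjusted p = 0.0116). slc4a1a, the anion exchanger of red cells, had 45.03 ± 5.85 in LD and 112.5 ± 37.5 in DD, with a difference of -1.03 ± 0.19 (adjusted p = 0.00287), and 3 of 3 tested blood markers were also lower in LD. orai1a, the pore of store-operated calcium entry, had 21.2 to 37.8 in LD and 44.2 to 79.6 in DD, so that the groups did not overlap, with a difference of -0.71 ± 0.14 (adjusted p = 0.00383). The other calls were fxyd6l (0.44), of a family of Na,K-ATPase regulators, and the ATP synthase subunit genes atp5f1c (0.41) and atp5f1b (0.29), all higher in LD. fxyd3 (-1.03), of the same regulator family, and slc9a7 (-0.45), a sodium and proton exchanger, were lower. The part of red cells in these values was not tested.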
